A study of Mus musculus with 6 samples.

Results

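A set of 41 mouse genes of autophagy and the lysosome was followed in a pre-B cell line that overexpressed miR-26a or carried a miR-26 sponge. The members were chosen by gene name. They are carried by 62 of the 55681 different probes of the array, which names 24105 genes in all. For 37 of the 41 genes at least 1 probe was bright enough to be tested, which gave 49 tested probes. Grouped by role, the members comprise 9 genes of initiation and phagophore formation, 5 of the conjugation machinery, 7 Atg8 proteins and cargo receptors, 6 cathepsins and protective protein, 7 glycosidases and lipid-handling proteins, 4 proteins of the lysosomal membrane and 3 transcription factors of the MiT/TFE family.

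The cells are the mouse pre-B line 1676, which has the genotype SLP-65-/- LAT-/- in every group and therefore lacks both of these signaling adaptors. All cells were grown in an excess of IL-7, infected with a retroviral vector and selected with puromycin. The control group carried an empty control vector, the miR-26a group a construct for the precursor hsa-miR-26a-2, and the sponge group a transcript with binding sites that sequester the miR-26 family. Each group had 2 arrays, 1 from each of 2 independent experiments with newly generated transduced cells, all from 1 cell line and with no IL-7 withdrawal. The titles of the control samples point to other records, so the control arrays may come from earlier work, and their pairing with the arrays of the same number rests on the study's methods. The 2 comparisons with control share the same 2 control arrays, and the sponge was compared with the empty vector, not with a scrambled sponge.

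Autophagy encloses cytoplasm in a double membrane and delivers it to the lysosome. The Ulk1 kinase complex and the Becn1 lipid kinase complex start the membrane, a ubiquitin-like conjugation system built around Atg12, Atg5 and Atg16l1 attaches Atg8 proteins such as LC3 and GABARAP to it, and cargo receptors such as p62 bind what is to be degraded. The lysosome then digests the content with cathepsins and glycosidases, and TFEB, TFE3 and MITF are transcription factors known to switch on genes of this pathway. In growing cells mTORC1 restrains both autophagy and these factors, and IL-7 is a growth signal of pre-B cells.

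Each array held 59305 spots, of which 28823 to 29800 were well above background and none was saturated. The filter left 20168 probes, each detected above background on 1 array or more and with a background-subtracted signal over 50 on 4 arrays or more. The authors' background-subtracted intensities were quantile-normalized and taken to log2, and changes were tested with limma, with the experiment as a block and Benjamini-Hochberg adjustment over all 20168 probes. A probe was called at an adjusted p under 0.05. Precision is limited by having 2 arrays per group, and the p-values measure the spread between these transduced cultures of 1 line. All 12 pre-B cell genes checked, among them Cd79a and Pax5, were detected above background by their brightest probe on each of the 6 arrays. Of these 12, the 3 genes Rag1, Rag2 and Dntt were called lower in miR-26a cells than in control, with log2 changes from -3.36 to -1.12. The dimmer Rag1 and Rag2 probes, both untested, were detected on no miR-26a array. Detection thus does not mean that the levels were equal between the groups. Of 5 T cell genes, Cd3e and Cd4 were detected on all 6 arrays and Cd3g, Cd8a and Cd8b1 on none. The probes for Blnk, which encodes SLP-65, and Lat were also detected everywhere. Blnk was called lower in miR-26a cells than in control (log2 change -0.49, limma adjusted p = 0.0275), and Lat was not called (-0.07). The 2 probes do not check the genotype, because the deleted parts of these genes were not compared with them.

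Mature miR-26a and miR-26b share the seed that pairs with target transcripts, so the mouse sequences are shown with the seed (bases 2 to 8) in capitals. They come from RefSeq on build GRCm38.p6, where miR-26a is encoded at chr9:119031811-119031832 and chr10:126995543-126995564 and miR-26b at chr1:74394324-74394344, all on the plus strand. The sequence of the construct itself was not read here.
mmu-miR-26a-5p: uUCAAGUAauccaggauaggcu
mmu-miR-26b-5p: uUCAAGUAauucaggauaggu
The 7-letter words TACTTGA, which pairs with bases 2 to 8, and ACTTGAA, which pairs with bases 1 to 7, were sought in the 60-base probe sequences as the array design gives them. Of the 62 member probes 1 held either word (1.61%), the untested Ctsl probe, against 0.955% of all probes, so that none of the 49 tested ones did. The 6 letters that both words share, ACTTGA, were held by 3 member probes (4.84%), that of Ctsl, that of Glb1 and the dimmer one of Atg12, against 1.96% of all probes. In the Glb1 probe they stand in this stretch of 30 bases, printed because Glb1 had the largest fall of any brightest probe.
Glb1 probe: tttcctgacctgACTTGAccatcggtggcc
A probe covers a small piece of a transcript, so these matches describe the probes and not the target sites of the genes.

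In miR-26a cells, 4 members had a probe that fell and 2 had a probe that rose, out of 37. The galactosidase Glb1, the sialidase Neu1, the conjugation protein Atg12 and the kinase Ulk2 were lower than in control, and the Atg8 protein Gabarapl1 and the acid glucosidase Gaa were higher. The 4 called lower member probes of 49 stand beside 5.14% of all 20168 tested probes, and the 2 called higher beside 4.50%. At an unadjusted p under 0.05, 12 member probes were lower (13.0% of all probes) and 7 were higher (14.3%). Taking the brightest tested probe of each member, the median log2 change of the 37 genes was 0.02, compared with 0.01 for all probes tested, and single members ranged from -0.80 to 0.56.

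**Figure D1:**
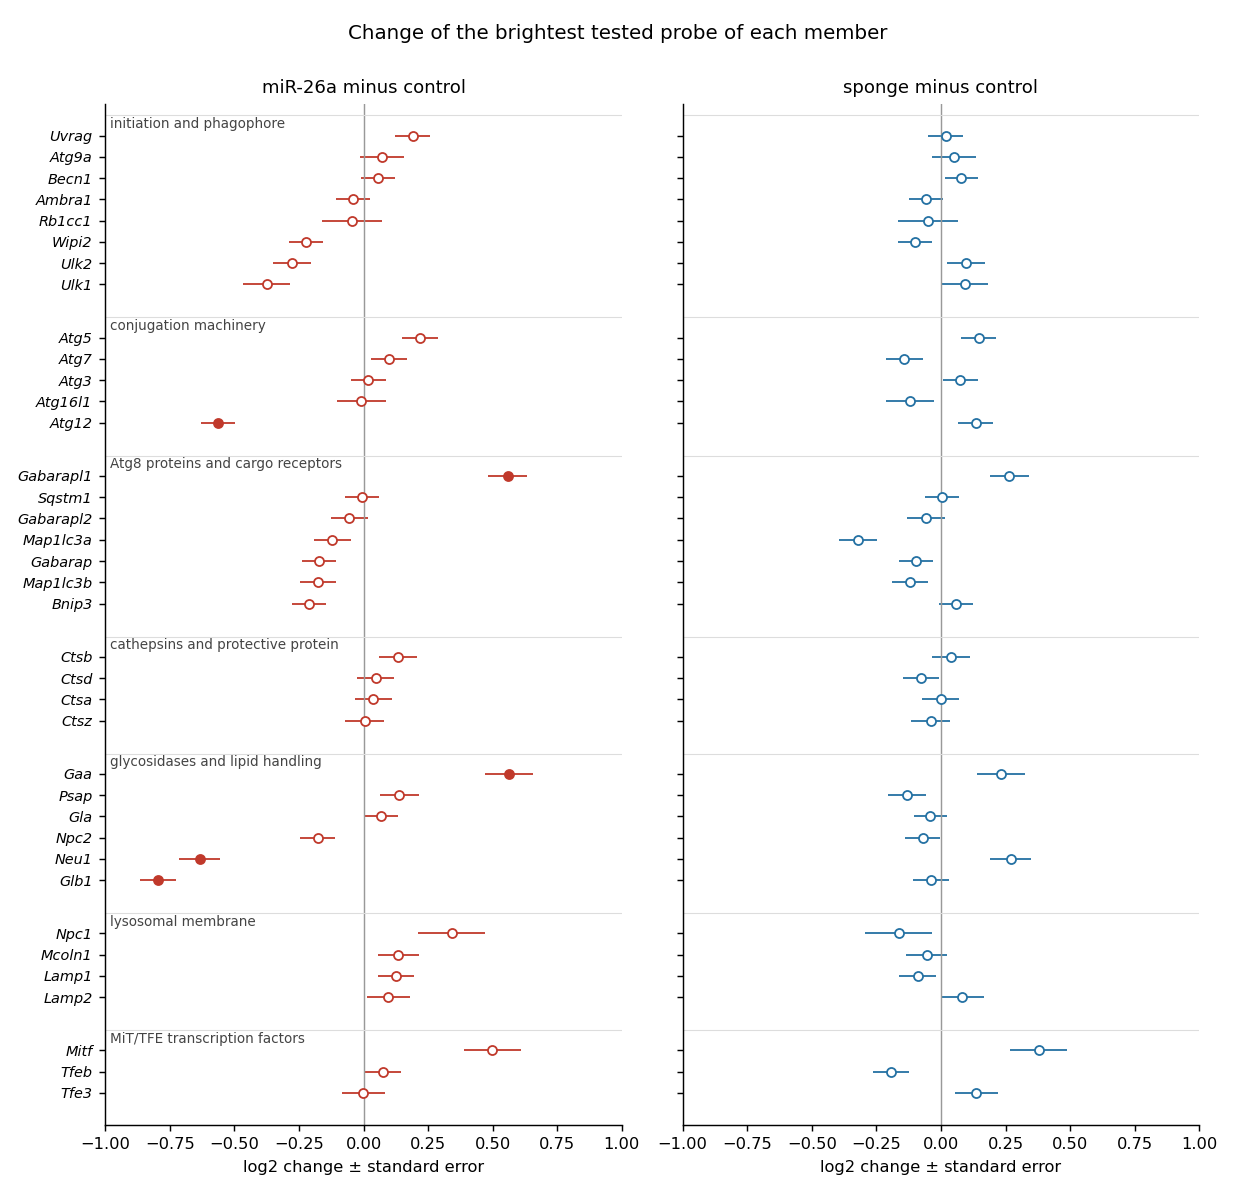
Log2 change of the brightest tested probe of each of the 37 tested members, miR-26a minus control on the left and sponge minus control on the right, grouped by role. Points are the limma estimates from 2 arrays per group, bars are 1 standard error on each side, and filled points had an adjusted p under 0.05; the filled points are Glb1, Neu1, Atg12, Gabarapl1 and Gaa in miR-26a cells, and no point is filled for the sponge.

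Glb1 and Neu1 are lysosomal glycosidases. The enzymes remove terminal galactose and sialic acid from glycoconjugates and are known to form a lysosomal complex with the protective protein Ctsa. The Glb1 probe (chr9:114383136-114383195, mm9) gave log2 signals of 11.10 and 11.10 in control replicates 1 and 2, 10.34 and 10.26 in miR-26a cells, and 11.04 and 11.08 in sponge cells. Both miR-26a arrays lay below all other arrays, and the sponge arrays lay just below the control arrays. Glb1 fell by 0.80 on the log2 scale in miR-26a cells (standard error 0.07), a 1.74-fold lower signal, with an adjusted p of 0.00648 in limma.

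The Neu1 probe (chr17:35072105-35072164, mm9) read 11.98 and 11.90 in control cells, 11.24 and 11.37 in miR-26a cells, and 12.20 and 12.23 in sponge cells. The 3 groups did not overlap, with miR-26a lowest and sponge highest. Neu1 fell by 0.63 in miR-26a cells (standard error 0.08, limma adjusted p = 0.0124), which is 1.55-fold. In sponge cells its log2 change was 0.27, with an unadjusted p of 0.0164 and an adjusted p of 0.24. Ctsa, their partner in the complex, had control signals of 13.35 and 13.37 and miR-26a signals of 13.34 and 13.45. These overlapped, and the log2 change of Ctsa was 0.04 (standard error 0.07, limma adjusted p = 0.799).

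**Figure D2:**
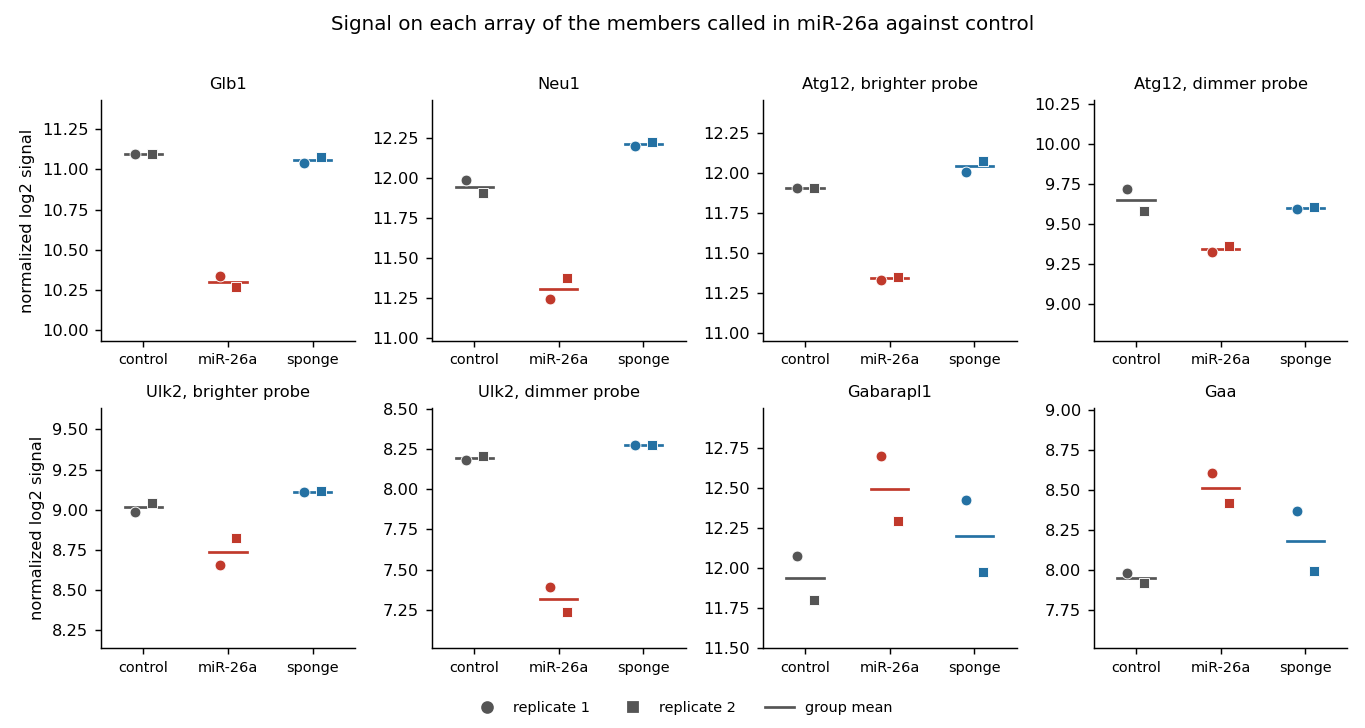
Normalized log2 signal on each of the 6 arrays for the 6 members with a called probe in miR-26a against control, with both tested probes of Atg12 and Ulk2. Circles are replicate 1, squares replicate 2 and lines the group means; miR-26a arrays lie below both other groups for Glb1, Neu1, Atg12 and Ulk2 and above the control arrays for Gabarapl1 and Gaa.

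The other glycosidase and lipid-handling members moved less, apart from Gaa. Gaa, which breaks down glycogen in the lysosome, read 7.98 and 7.92 in control cells, 8.61 and 8.41 in miR-26a cells, and 8.37 and 7.99 in sponge cells (chr11:119146697-119146756, mm9). Its miR-26a arrays were the highest, and the first sponge array stood between them and the control arrays. Gaa rose by 0.56 in miR-26a cells (standard error 0.09, limma adjusted p = 0.0241), or 1.48-fold. The saposin precursor Psap, the alpha-galactosidase Gla and the cholesterol carrier Npc2 had log2 changes of 0.14, 0.07 and -0.18, none of them called. Hexa, a subunit of hexosaminidase, was not well above background on any array and was not tested.

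Among the genes that start autophagy, Ulk2 was the only one of 8 tested with a called probe against control. Ulk2 is a protein kinase and the close relative of Ulk1 in the initiating complex. Its 2 probes lie close together on chromosome 11 and differed in the size of the change. The dimmer probe (chr11:61589841-61589900, mm9) read 8.18 and 8.21 in control cells, 7.39 and 7.24 in miR-26a cells, and 8.28 and 8.28 in sponge cells. It fell by 0.88 (standard error 0.08, limma adjusted p = 0.00642), which is 1.84-fold and the largest fall of any tested member probe. The brighter probe (chr11:61591022-61591081, mm9) read 8.99 and 9.04, then 8.65 and 8.82, then 9.11 and 9.12. On both probes each miR-26a array lay below every other array, but the brighter probe differed by -0.28 with an adjusted p of 0.0765 and was not called.

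Ulk1, the better known kinase of this pair, showed the same order of groups as Ulk2 without a call against control. Its log2 signals were 12.37 and 12.56 in control cells, 12.09 and 12.09 in miR-26a cells, and 12.61 and 12.51 in sponge cells. The miR-26a arrays were below all others, and control and sponge arrays overlapped. The difference between miR-26a and control was -0.38 (standard error 0.09, limma adjusted p = 0.0611). Becn1, the core of the lipid kinase complex, read 10.88 and 10.87 in control cells, 10.92 and 10.94 in miR-26a cells and 10.95 and 10.96 in sponge cells. The control arrays were the lowest by a small margin, and the change of Becn1 in miR-26a cells was 0.06 (limma adjusted p = 0.649). Of the remaining members of this role, Ambra1, Atg9a, Rb1cc1 and Uvrag had brightest-probe changes between -0.04 and 0.19. The dimmer Rb1cc1 probe was at -0.11 and was not called. The brighter probe of Wipi2, which binds the lipid made by the Becn1 complex, was at -0.22 and its dimmer probe at 0.08, neither of them called. Wipi1 was not tested, since its 3 probes were well above background on 5, 3 and 0 arrays and too dim.

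In the conjugation machinery, Atg12 alone had a called probe among 5 tested genes. Atg12 is the ubiquitin-like protein that is joined to Atg5. Its brighter probe read 11.91 and 11.90 in control cells, 11.33 and 11.35 in miR-26a cells, and 12.01 and 12.07 in sponge cells. The 3 groups were separate, with replicates close together in each. The brighter probe fell by 0.56 in miR-26a cells (standard error 0.07, limma adjusted p = 0.0108), or 1.48-fold. The dimmer Atg12 probe, with 9.72 and 9.58 in control and 9.33 and 9.37 in miR-26a cells, differed by -0.30 (adjusted p = 0.0687). Atg5, to which Atg12 is attached, was at 12.07 and 12.03 in control cells and at 12.29 and 12.24 in miR-26a cells. It did not pass the adjusted threshold (log2 change 0.22, adjusted p = 0.115). Atg3 and Atg7, the conjugating and activating enzymes, and Atg16l1, the partner of Atg12 and Atg5, had brightest-probe changes of 0.02, 0.10 and -0.01. A second Atg7 probe read 8.05 and 9.44 in the 2 control cultures, a gap that leaves its own change of -0.59 with a standard error of 0.39.

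Gabarapl1 was the only Atg8 protein with a call. It belongs to the GABARAP branch of the proteins that are attached to the autophagosome membrane. The probe (chr6:129492254-129492313, mm9) read 12.07 and 11.80 in control cells, 12.70 and 12.29 in miR-26a cells, and 12.43 and 11.98 in sponge cells. In all 3 groups the first experiment read higher than the second, and within each experiment miR-26a was highest and control lowest. Gabarapl1 rose by 0.56 in miR-26a cells (standard error 0.08, limma adjusted p = 0.0151), or 1.47-fold. Without the experiment as a block the adjusted p was 0.261 for Gabarapl1 and 0.131 for Gaa, and neither was called.

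The other Atg8 proteins lay on the opposite side of 0 in miR-26a cells without a call. Map1lc3b, the LC3 form used as a marker of autophagosomes, read 12.83 and 12.96 in control cells, 12.68 and 12.76 in miR-26a cells, and 12.68 and 12.88 in sponge cells. Its change was -0.18 (standard error 0.07, limma adjusted p = 0.179). Gabarap, Gabarapl2 and Map1lc3a had brightest-probe changes of -0.17, -0.05 and -0.12, and the dimmest Gabarap probe was at 0.28 with an adjusted p of 0.131. Sqstm1, which encodes the cargo receptor p62, read 11.25 and 11.30 in control cells, 11.25 and 11.28 in miR-26a cells and 11.24 and 11.32 in sponge cells. The 3 groups overlapped fully, and the change of Sqstm1 was -0.01 (adjusted p = 0.961). Bnip3, a mitophagy receptor of the mitochondrial outer membrane, had 3 tested probes with changes of -0.21, -0.21 and -0.15, none of them called.

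No cathepsin and no member of the lysosomal membrane had a called probe in limma. At an unadjusted p under 0.05, none of the 5 tested probes of either role was lower and 1 was higher, the Npc1 probe. Ctsb, a cysteine protease, read 12.53 and 12.59 in control cells, 12.73 and 12.65 in miR-26a cells and 12.56 and 12.64 in sponge cells. The miR-26a arrays were slightly above the control arrays, with a change of 0.13 (standard error 0.07, limma adjusted p = 0.319). Ctsd and Ctsz had brightest-probe changes of 0.05 and 0.00, the dimmer Ctsd probe was at -0.07, and Ctsh and Ctsl were not well above background on any array. Lamp1, a main glycoprotein of the lysosomal membrane, read 14.43 and 14.54 in control cells, 14.51 and 14.71 in miR-26a cells and 14.36 and 14.43 in sponge cells. The groups overlapped, and the change of Lamp1 was 0.13 (limma adjusted p = 0.322). Lamp2 and the calcium channel Mcoln1 were at 0.10 and 0.13, with the dimmer Lamp2 probe at -0.11. The cholesterol transporter Npc1, dim on all arrays, had the largest change in this role, 0.34 with a standard error of 0.13 and an adjusted p of 0.167.

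The transcription factors were measured by 4 tested probes, and none was called in limma. At an unadjusted p under 0.05, 1 of the 4 was higher and 0 were lower. Tfeb read 9.95 and 10.16 in control cells, 10.003 and 10.26 in miR-26a cells, and 9.70 and 10.02 in sponge cells, with a change of 0.08 in miR-26a cells (standard error 0.07, limma adjusted p = 0.546). Tfe3 read 11.08 and 11.02, then 10.98 and 11.12, then 11.24 and 11.14, and its change was 0.00 with an adjusted p of 0.994. For both genes the control and miR-26a arrays overlapped. Mitf was dimmer and higher in both altered groups, with 6.76 and 6.86 in control cells, 7.31 and 7.31 in miR-26a cells and 7.34 and 7.03 in sponge cells. Its change in miR-26a cells was 0.50 (standard error 0.11) with an adjusted p of 0.0514, next to the threshold. Mitf passed under 5 of 16 alternatives, with 0.51 and an adjusted p of 0.0437 in limma when the arrays were scaled to their 75th percentile.

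These factors bind the E-box word CACGTG, best with a T before it and an A after it, so the word was sought in the promoters of the members. The promoters run from 250 bases before to 50 bases after each RefSeq start site (GRCm38.p6). An entry was found for 33 of the 41 members, with 40 promoters, and not for Atg12, Atg16l1, Becn1, Ctsb, Ctsh, Map1lc3a, Npc1 and Rb1cc1. CACGTG, which reads the same on both strands, was present in 12 of these 40 promoters and in 7.15% of all 32851 promoters. The longer words, which contain the shorter, were sought on both strands. TCACGTG was in 22.5% of member promoters and 3.77% of all, and TCACGTGA in 12.5% and 0.974%. The words are not particular to the members. Of 131 promoters of the further autophagy and lysosome genes listed below, 16.0% held CACGTG, 15.3% TCACGTG and 6.11% TCACGTGA. Among the genes with a called probe against control, Glb1 and Gaa hold the word, and Ulk2, Neu1 and Gabarapl1 do not within this window. The stretches of Glb1, which fell, Gaa, which rose, and Lamp1 and Mcoln1, which were not called and hold the word 4 times and 2 times, are printed as chosen examples. A link between the word and the changes was not tested. The word and its flanking T or A are in capitals, and all lie on the plus strand.
Glb1, chr9:114401010-114401055: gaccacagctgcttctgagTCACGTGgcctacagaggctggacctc
Gaa, chr11:119267803-119267848: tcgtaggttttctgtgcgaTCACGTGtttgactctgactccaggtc
Lamp1, chr8:13159080-13159160: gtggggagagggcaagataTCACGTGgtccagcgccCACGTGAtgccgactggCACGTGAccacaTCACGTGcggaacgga
Mcoln1, chr8:3500428-3500499: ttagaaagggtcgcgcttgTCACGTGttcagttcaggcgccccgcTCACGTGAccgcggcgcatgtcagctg
The word begins 48 bases before the start site in Glb1 and 140 bases before it in Gaa. A match is a description of the sequence, and binding was not measured here.

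**Figure D3:**
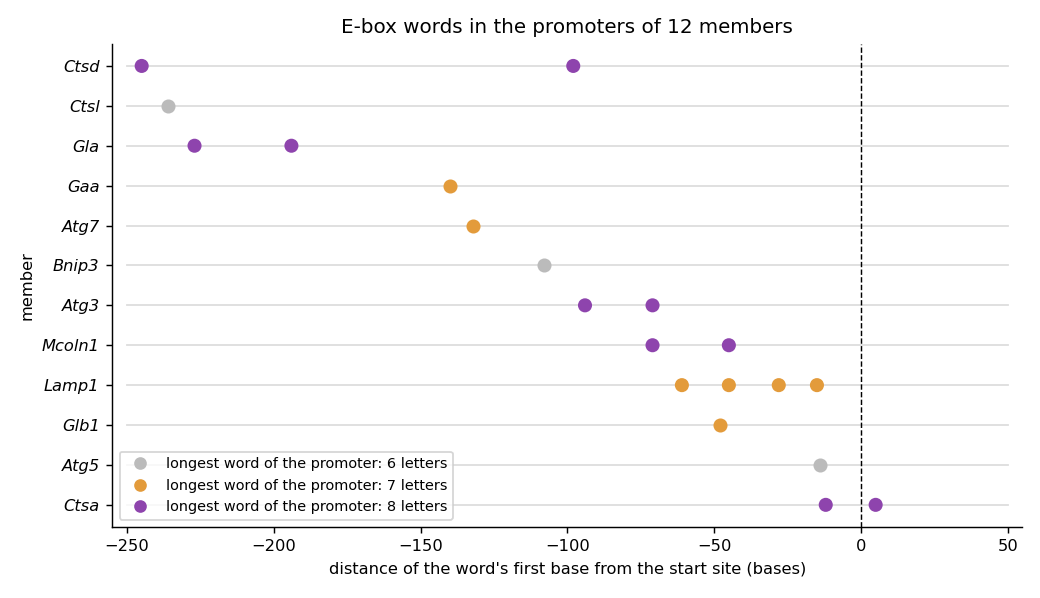
Distance of each CACGTG word from the start site, in bases, for the 12 members whose promoter window holds it; the dashed line is the start site. Colour gives the longest form of the word in that promoter, and Lamp1 shows 4 words between -61 and -15.

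The 6 calls against control rested on both control arrays. Without either one, these calls and most calls of the whole array were lost. The size of the log2 change of the same 6 probes ranged from 0.45 to 0.93 without control replicate 1. It ranged from 0.59 to 0.83 without control replicate 2, with the direction of each unchanged. Gaa was also not called without miR-26a replicate 2 (limma adjusted p = 0.0541). With all 55681 probes in the fit, with an unpaired t-test or with a test of the 2 log ratios, no probe of the array passed the adjusted threshold. The study itself selected genes by a p-value and a size of change and names no adjustment, so its rule differs from this one.

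In sponge cells no member probe was called in limma, neither lower (0% of all probes) nor higher (0.00992%). The unpaired t-test and the test of the 2 log ratios called 0 probes of the whole array in each comparison. Their lack of member calls therefore carries no information about the members. At an unadjusted p under 0.05, 2 member probes were lower, beside 8.72% of all probes, and 5 were higher, beside 7.38%. The median log2 change of the 37 members was -0.04, compared with 0.00 for all probes. With the arrays scaled to their 75th percentile it became 0.03 for the members and 0.03 for all probes. The 5 members with the smallest unadjusted p were Map1lc3a, Gabarapl1, Neu1, Mitf and Tfeb. Map1lc3a, an LC3 form, read 7.47 and 7.47 in control cells, 7.32 and 7.38 in miR-26a cells, and 7.07 and 7.22 in sponge cells. Both sponge arrays were the lowest, with a change of -0.32 (unadjusted p = 0.00551, limma adjusted p = 0.222). Tfeb had a change of -0.19 in the sponge, and Mitf, Neu1 and Gabarapl1 had changes of 0.38, 0.27 and 0.26, with adjusted p between 0.239 and 0.284 in limma. Gabarapl1 and Mitf thus lay above control with miR-26a and with the sponge, each measured against the same control arrays, while Neu1 lay below control with miR-26a and above it with the sponge. The sponge changes of Glb1, Atg12 and Ulk2 were -0.04, 0.13 and 0.08 on the called probes, none of them passing the test.

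Compared directly with sponge cells, miR-26a cells had 8 lower member probes of 7 genes. They stand beside 8.49% of all probes. No member probe was higher in limma (8.28% of all probes). Of the other limma settings that kept every array, 5 gave 1 to 4 (4 with normexp). The unpaired t-test and the test of the 2 log ratios called no probe of the array in either direction. At an unadjusted p under 0.05, 9 were lower (15.9% of all probes) and 9 higher (18.7%). The largest differences were -0.96 for the dimmer Ulk2 probe (adjusted p = 0.0033), -0.90 for Neu1 (adjusted p = 0.00392), -0.76 for Glb1 (adjusted p = 0.0043) and -0.70 for the brighter Atg12 probe (adjusted p = 0.00461). Ulk1 was lower by this comparison as well, at -0.47 (standard error 0.09, limma adjusted p = 0.0262), as was the brighter Ulk2 probe at -0.38 (adjusted p = 0.0273).

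Bnip3 and Rb1cc1 passed narrowly. The brightest Bnip3 probe read 12.92 and 12.90 in control cells, 12.72 and 12.67 in miR-26a cells, and 13.01 and 12.93 in sponge cells. Its difference was -0.27 with an adjusted p of 0.0475. Rb1cc1, the scaffold of the Ulk1 complex, was called on its dimmer probe only, with 8.32 and 8.39 in miR-26a cells and 8.70 and 8.61 in sponge cells, a difference of -0.30 (adjusted p = 0.047). Its brighter probe, at 9.74 and 9.78 against 9.88 and 9.63, overlapped and differed by 0.01. Some of the 8 calls were lost whichever array was left out, most of them without either sponge array. The lower calls of the whole array also became fewer each time, and fewest without a sponge array. The dimmer Ulk2 probe was the one called in each case.

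Of 130 further autophagy and lysosome genes in 6 lists, 123 were on the array and 111 were tested. In miR-26a cells 5 of them had a probe that fell and 6 a probe that rose, with 6 of their 145 tested probes called lower (5.14% of all probes) and 6 called higher (4.50%). At an unadjusted p under 0.05, 17 of the 145 were lower (13.0% of all probes) and 28 higher (14.3%). In sponge cells none was called in limma, and 13 were lower (8.72%) and 10 higher (7.38%) at an unadjusted p under 0.05. The unpaired t-test and the test of the 2 log ratios called no probe of the array. The falls were in the proton pump, in nutrient sensing, in lipid digestion and in the phagophore. Atp6v0e, a membrane subunit of the vacuolar proton pump that acidifies the lysosome, read 14.31 and 14.27 in control cells, 13.31 and 13.28 in miR-26a cells, and 14.35 and 14.26 in sponge cells. It fell by 1.00 (standard error 0.07, limma adjusted p = 0.00395), and control and sponge arrays overlapped. Atp6v1a, the catalytic subunit of the same pump, fell on both of its probes, by 0.67 and 0.71 (adjusted p = 0.012 and 0.0131). These 2 were the only ones called of 18 tested pump subunits.

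Rragd, a Rag GTPase that recruits mTORC1 to the lysosome, was dim and fell by 1.02 (standard error 0.15, limma adjusted p = 0.0166). Its signals were 6.50 and 6.28 in control cells, 5.20 and 5.54 in miR-26a cells, and 6.17 and 6.02 in sponge cells, so that the sponge arrays lay between. Lipa, the lysosomal acid lipase, fell by 0.57 (adjusted p = 0.0214), and Wdr45, a phagophore protein of the Wipi family, fell by 0.36 on one probe (adjusted p = 0.0327) with its other probe at -0.27 (adjusted p = 0.0801). Arsb, a sulfatase, rose by 0.61, Atg4c, a protease that trims Atg8 proteins, by 0.46, the protease Lgmn by 0.46, Wdr45l on 1 of 3 probes by 0.36 and the lysosomal glycoprotein Cd68 by 0.33, with adjusted p from 0.0114 to 0.0466 in limma. Without either control replicate, Atp6v0e was still called, while the other calls of these lists and most calls of the whole array were lost. The 5 lower and 6 higher genes became fewer without any 1 of the miR-26a or sponge arrays, as did the calls of the whole array.

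**Figure D4:**
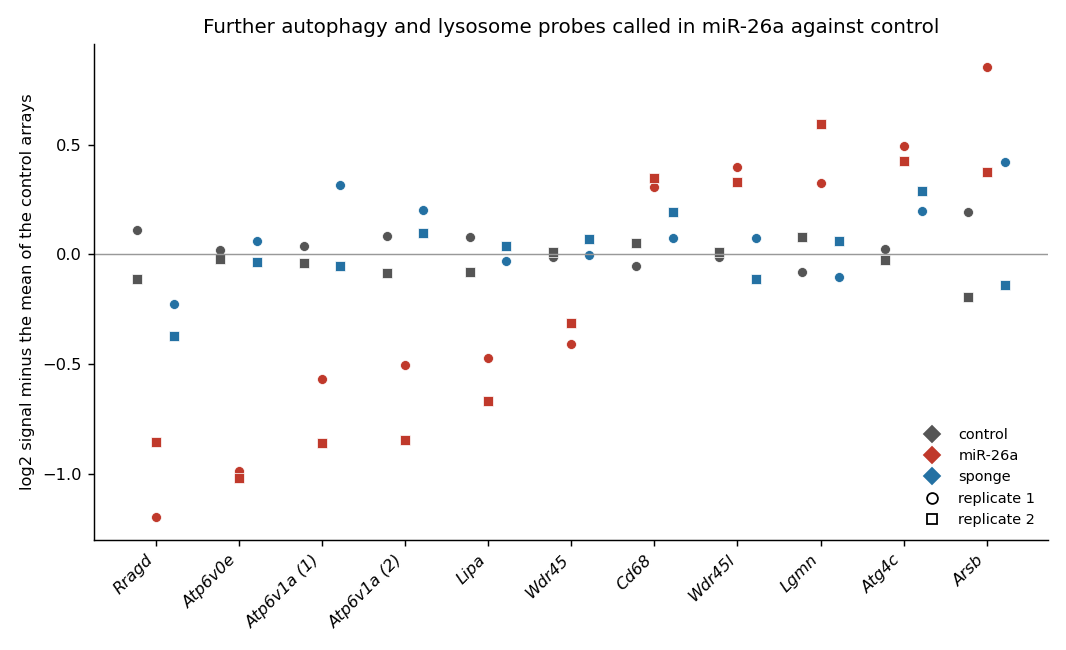
Log2 signal of each array minus the mean of the 2 control arrays for 11 of the 12 probes of the further autophagy and lysosome genes that were called in miR-26a against control, ordered by change; Atp6v1a has 2 probes. Grey is control, red miR-26a and blue sponge, circles are replicate 1 and squares replicate 2; Atp6v0e and Rragd show the lowest miR-26a arrays and Arsb the highest.

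Lysosomal genes are abundant in myeloid cells, and Cd68 is also a myeloid marker. Of 12 myeloid genes on the array, 4 (Itgam, Elane, Csf1r and Cd68) were detected above background on each of the 6 arrays, Lyz1 and Emr1 on 5 arrays and 3 genes on none, and no probe for Lyz2, Mpo or S100a9 was so on more than 1 array. In miR-26a cells 1 Itgam probe fell by 0.82 (limma adjusted p = 0.0072) and another differed by 0.06 (adjusted p = 0.744). The summed signals of the 12 genes, each by its brightest probe, overlapped between the groups. They were 3959 and 5021 in control, 4298 and 5023 in miR-26a and 3436 and 4863 in sponge cells. Most of each sum came from the Itgam probe that differed by 0.06, so the sums cannot show changes of the dimmer genes. By their brightest probes, Cd68, Csf1r and Elane had log2 changes of 0.33, -0.04 and -0.02 in miR-26a cells, and only Cd68 was called. The part of such cells in the lysosomal changes was not tested.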

How the data were processed

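Total RNA of 6 cultures of 1 cell line was labelled with Cy3 and hybridized to single-colour Agilent mouse arrays. The authors deposited 1 scanner file per array. Its processed intensity, with the background subtracted, was made with Agilent Feature Extraction 10.7.1.1 according to the submitters' processing notes. Names and positions (mm9) of the probes come from the array design. The deposited series table holds the authors' quantile-normalized intensities and served as an alternative.

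Here the processed intensities were normalized by quantiles, put on the log2 scale and averaged per probe, leaving out control spots and outlier flags. limma 3.58.1 in R 4.3.3 was fitted to all 6 arrays with lmFit and eBayes, with the replicate number as a block and Benjamini-Hochberg adjustment over all probes tested. This number stands for the experiment, since the methods set each experiment against its own control. Deviations from the group mean were correlated between arrays of the same number. Across all tested probes the correlations were 0.38 for control with miR-26a, 0.59 for control with sponge and 0.45 for miR-26a with sponge. Across the tested member probes they were 0.21, 0.04 and 0.64 in the same order. All arrays lie on 1 slide, and its rows coincide with the replicate numbers. The fit was tested on simulated data. Figures were drawn with matplotlib 3.10.9.

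All members may be named. The values of 1 further pathway gene are not reported here. The brightest tested probe represents a member, and other probes are given where call or sign differs. Values by array are given for called members, for the 5 members with the smallest p in the sponge and for 8 well-known genes. The members and lists were chosen with earlier results of these data known. Alternatives were the fit without the block, other scalings, background corrections, filters and tests, averaged probes, the authors' values and leaving out each array. Whether a probe lies in coding or untranslated sequence was not analysed here.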

Additional observations from a re-analysis of the deposited data

How the results depend on the processing

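The 60 gene-level results were recomputed under up to 16 alternatives, which gave 958 values. Of these, 760 kept their side of the threshold, among them uncalled values whose sign changed by no more than their standard error. A further 184 were no longer called, 7 became called, 7 uncalled values changed sign by more than their standard error and 0 called values reversed. The 184 losses all fell on results called in the main fit. These were 6 member and 12 further pathway probes against control and 8 member probes against the sponge. The 760 include results that were never called, so they do not measure how stable the calls were. Without the replicate block (the pairing of arrays by experiment), 0 member probes were higher and the 4 lower ones of miR-26a versus control were again 4, 2 further pathway genes were lower and 0 higher, and 4 member probes were lower in miR-26a versus sponge. With no filter, with an unpaired t-test and with the test of the 2 log ratios, every count of called members and pathway genes was 0. The count over the whole array was also 0 under each of them. In miR-26a versus sponge, the number of higher member probes was 1 with 75th percentile scaling, 4 with normexp, 1 with a signal over 50 on 2 arrays, 3 when all 6 arrays had to pass and 2 with averaged probes, where 5 genes were lower. The median change of the members in the sponge was 0.034 with 75th percentile scaling, -0.011 with normexp and -0.00094 with averaged probes. Over everything tested, the median under the same settings was 0.034, 0.0059 and 0.0024.

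Leaving out each array in turn changed which member probes and further pathway genes were called. The calls of the whole array became fewer each time in miR-26a versus control and in miR-26a versus sponge. The median change of the members in the sponge ranged from -0.039 to -0.010. The fewest calls of miR-26a versus control, of members and of the whole array, came without control replicate 1 and without control replicate 2. The cause of these differences was not tested, except that fewer arrays and more probes in the fit follow from the settings themselves. The slide could not be fitted as a block, since there is 1 slide. Changes of dim probes such as those of Mitf, Npc1, Rragd and Arsb rest on low signals, and 4 members (Ctsh, Ctsl, Hexa and Wipi1) were too dim to test.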
